A study of Mus musculus with 12 samples.

Results

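Expression of 10 nuclear genes that serve mitochondria was followed across fibroblasts under reprogramming and adult heart muscle cells. Tfam, Tfb2m and Polrmt act in the transcription of mitochondrial DNA, Polg in its replication, Lrpprc and Slirp in keeping the RNA made from it, Mfn1, Mfn2 and Opa1 in mitochondrial fusion, and Dnm1l in fission. The genes were taken as a list and matched by symbol to the Ensembl identifiers of the deposited counts. All 10 were found among 43629 identifiers, and all 10 were among the 15059 genes kept by a filter on low counts.

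The study addressed whether Akt1, a kinase of the insulin and growth factor pathway, helps heart transcription factors turn fibroblasts into heart muscle cells. RNA was sequenced in 12 libraries from C57BL/6 mice, 3 in each of 4 groups. AGHMT stands for mouse embryonic fibroblasts (MEFs) 3 weeks after Gata4, Hand2, Mef2c and Tbx5 given together with Akt (Akt1 in the series title), and GHMT for MEFs 3 weeks after the same 4 factors without it. CM stands for isolated ventricular cardiomyocytes of adult mice, and E for MEFs 3 weeks after an empty vector. AGHMT and GHMT cells were sorted on αMHC-GFP, a green fluorescent reporter under the promoter of the heart myosin gene Myh6, and the labels of CM and E name no sort, so the sort and the factors cannot be told apart in any comparison with E or CM. The labels do not say whether the libraries of a group came from separate cultures or animals, so the p-values measure only the spread between these libraries, which may be technical.

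Mitochondrial DNA is transcribed by a polymerase of its own, Polrmt, which needs Tfam and Tfb2m to start at the promoters. Tfam also coats and packs the DNA, and Polg is the catalytic subunit of the polymerase that copies it. Lrpprc and Slirp form a complex that binds mitochondrial messenger RNAs and protects them from decay. Mitochondria constantly join and split: the mitofusins Mfn1 and Mfn2 tether and fuse the outer membranes, Opa1 fuses the inner membranes, and Dnm1l (also called Drp1) assembles around the organelle and constricts it. Adult heart muscle is densely packed with mitochondria, and in mice loss of both mitofusins from the heart causes cardiomyopathy.

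Because the genes share a cellular role, their promoters were searched for sites of 3 regulators of nuclear genes for mitochondria. The search used RefSeq start sites of GRCm38.p6, from 250 bases before to 50 after the start, on both strands, and all 10 genes had an entry. The ETS core CCGGAAGT, to which the factor GABP binds, was found in Tfam, Polg and Mfn1 and in 3.92% of all 32544 windows. The NRF1 core CGCATGCG, which reads the same on both strands, was found in Tfb2m and Opa1 and in 1.87% of windows, and no window of the 10 genes held both cores. The ERR site TCAAGGTCA was found in none of the 10 and in 0.412% of windows. The stretches around the matches are shown 5′ to 3′ on the strand of the gene, with the match in capitals, because they show which members hold one or the other core.
Tfam (chr10:71238073-71238102, minus strand, match starting 47 bases upstream of the start): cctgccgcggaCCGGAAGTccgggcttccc
Polg (chr7:79466293-79466322, minus strand, 38 bases upstream): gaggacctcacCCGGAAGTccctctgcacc
Mfn1 (chr3:32529427-32529456, plus strand, 44 bases upstream): gatccgaagcgCCGGAAGTagccgccccta
Opa1 (chr16:29579265-29579294, plus strand, 58 bases upstream): gtggctccccgCGCATGCGcatgtcatccg
Tfb2m (chr1:179546246-179546275, minus strand, match starting 12 bases after the start): gctaggtcgttCGCATGCGccattcgtaat
A match is a string of letters and no measure of binding. The stretches of Tfam and Polg lie within the gene in the GENCODE annotation, that of Tfb2m partly, and those of Mfn1 and Opa1 before it.

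The libraries differed in depth and in makeup. Reads in genes numbered 14386407 to 18493989 in AGHMT, 1872558 to 2200815 in GHMT, 5120230 to 15952646 in CM and 15971154 to 33552138 in E. Mitochondrially encoded genes took 36.64% to 42.73% of these reads in AGHMT, 27.85% to 72.17% in GHMT, 39.96% to 59.91% in CM and 3.65% to 7.36% in E. Levels are given in CPM, normalised counts per 1e6 reads, on the scale of edgeR's trimmed mean of M values, and 3 reads were worth 3.93, 1.56 and 2.06 CPM in GHMT 1 to 3. Akt1 itself was at 7.3 to 19.6 CPM in the libraries labelled AGHMT, 1.31 to 13.7 CPM in GHMT, 18.1 to 104.3 CPM in CM and 21 to 103.7 CPM in E. It was not called between AGHMT and GHMT (log2 fold change 0.34, SE 0.79, edgeR adjusted p = 0.786) and was lower in AGHMT than in E (-2.27, SE 0.75, 0.0227). The counts thus do not show the added Akt1, the labels do not say which coding sequence was given, and AGHMT below is the name on the labels. Summed levels of 8 cardiomyocyte markers were 3612 to 4069 CPM in AGHMT, 650 to 1147 CPM in GHMT, 21936 to 50799 CPM in CM and 6.86 to 13.6 CPM in E, and of 8 fibroblast markers 5990 to 6992, 2007 to 3887, 629 to 692 and 11136 to 13406 CPM in the same order. Markers of 5 other cell types were measured too. The 6 endothelial markers summed to 61.8 to 72.0 CPM in AGHMT, 2.62 to 11.5 in GHMT, 473 to 610 in CM and 8.01 to 9.53 in E. The 6 macrophage markers summed to 32.3 to 47.3, 2.08 to 6.87, 90.5 to 130.3 and 11.8 to 37.8 CPM in that order, with no read of Cd68 or Adgre1 in GHMT. The 4 smooth muscle markers summed to 376 to 579, 308 to 489, 81.3 to 300 and 1084 to 5502 CPM, and the 4 mast cell markers to 310 to 340, 65.5 to 162, 6.87 to 10.3 and 0.217 to 0.489 CPM, with no read of Cpa3, Cma1 or Kit in GHMT. The 6 genes of dividing cells summed to 90.9 to 102 CPM in AGHMT, 50.9 to 95.7 in GHMT, 21.1 to 31.7 in CM and 591 to 1015 in E, with no read of Plk1 in GHMT. The part of these cell types in the results was not tested. In these bulk samples, fewer cells of a type and less RNA per cell cannot be told apart.

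The adult cardiomyocytes had the highest mean levels of both mitofusins, Opa1, Lrpprc and Slirp, and no member had a lower mean in CM than in E. Tfam, Polg and Polrmt also had their highest mean in CM, where their libraries overlapped those of E. In the cells labelled AGHMT, Polrmt, Polg and Slirp lay below E and CM, Mfn1 lay between them, and Dnm1l was above both in its mean. In GHMT all members but Dnm1l and Polrmt had their lowest mean, and Dnm1l was at its highest. Polrmt had no read there, which at that depth does not place it below AGHMT. A gene is called higher or lower below where the quasi-likelihood test of edgeR gave an adjusted p under 0.05, by the method of Benjamini and Hochberg over all 15059 genes.

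**Figure D1:**
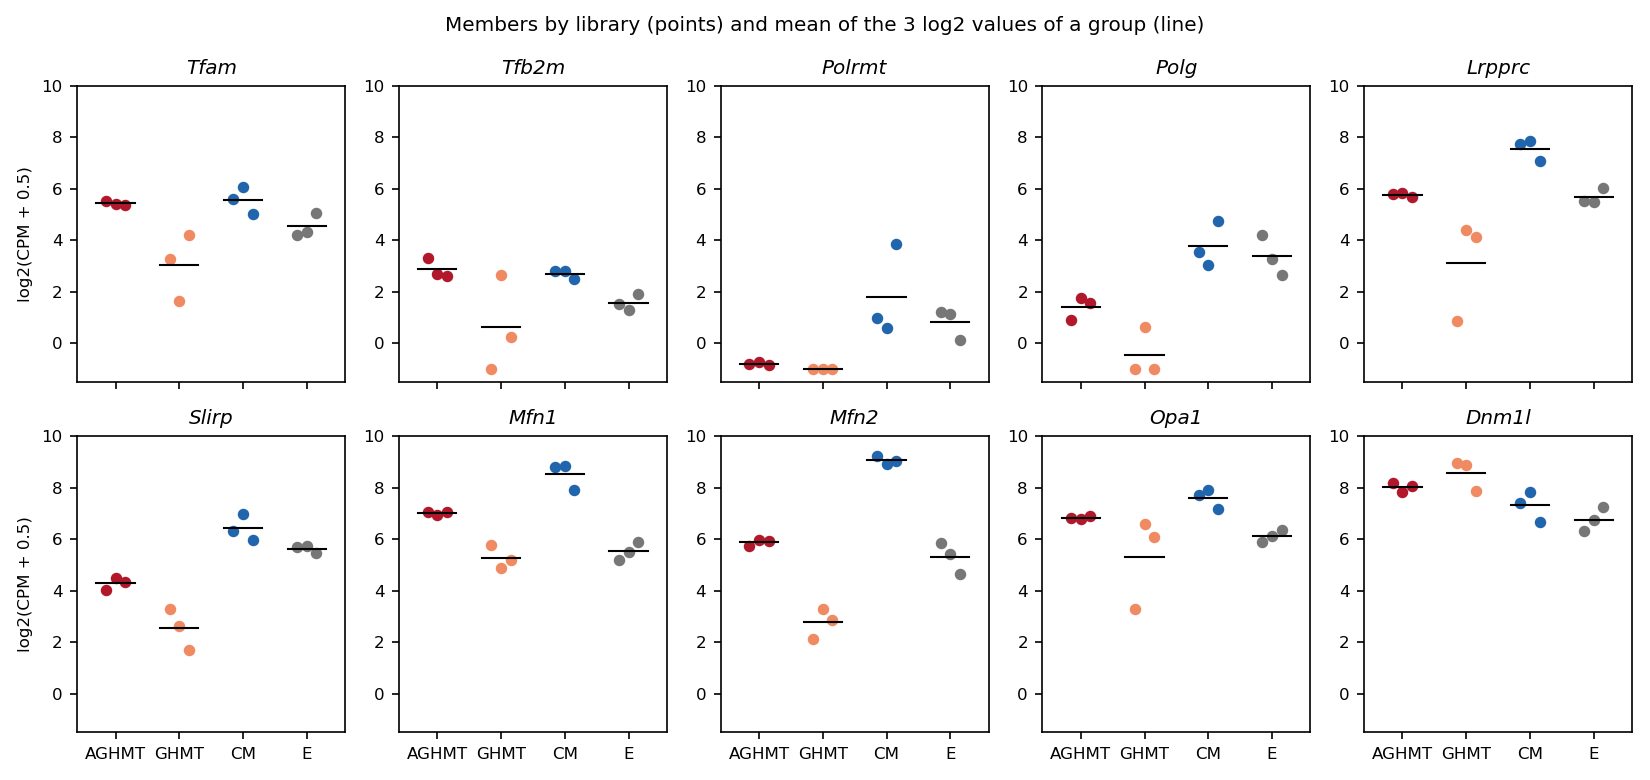
Level of each of the 10 genes as log2(CPM + 0.5), with 1 point per library and a line at the mean of the 3 log2 values of a group, for the groups AGHMT, GHMT, CM and E. Mfn2 stands at 491 to 604 CPM in CM and at 3.93 to 9.38 CPM in GHMT, and Polrmt has no read in the 3 GHMT libraries.

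Against E, 2 of the 10 members were called higher in AGHMT, where 21.9% of all genes were, and 3 were called lower, where 24.6% of all genes were. Both shares are near the background. In GHMT against E, 1 member was higher (19.8% of all genes) and 4 were lower (32.9%). In CM against E, 4 members were higher (19.5%) and 0 were lower (22.5%). In AGHMT against GHMT, 5 members were higher (13.2%) and 0 were lower (4.58%). Against CM, AGHMT had 0 members higher (23.7%) and 6 lower (24.4%), and GHMT had 1 higher (23.8%) and 8 lower (34.7%). The 3 comparisons with E share the E libraries, those with CM share the CM libraries, and so their counts are not independent. For each of the 3 counts of 0, edgeR gave 0 members at an unadjusted p under 0.05, and DESeq2 and limma called 0.

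The median log2 fold change of the 10 members was 0.60 in AGHMT against E, where the median of all genes was -0.16. In CM against E it was 1.37 (all genes -0.26), and in AGHMT against CM -1.69 (all genes -0.05). Comparisons with GHMT hold many genes without a read there. With those genes set to the bound that 3 pooled reads allow, the members' median was -1.12 in GHMT against E (all genes -0.59), 1.80 in AGHMT against GHMT (all genes 0.33, Polrmt left out) and -3.11 in GHMT against CM (all genes -0.57). The fitted medians of the members were -1.58, 1.87 and -3.53, and those of all genes -1.06, 0.63 and -0.89. The members' median thus lay above that of all genes in AGHMT and CM against E and below it in GHMT against E.

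The scaling of the libraries moved all genes together. With total counts as library sizes the median of all genes was -0.99 in AGHMT against E, -2.38 in GHMT against E, -1.25 in CM against E and 1.17 in AGHMT against GHMT. With DESeq2's size factors it was -0.50, -1.27, 0.14 and 0.52. The share of calls that were higher, over all genes, was 47.0% in AGHMT against E and 23.3% with total counts. It was 37.6% in GHMT against E and 12% with total counts, 46.4% in CM against E and 22.7% with total counts or 58.3% with size factors, and 74.3% in AGHMT against GHMT and 95.4% or 63.7%. Without mitochondrially encoded genes in the scaling it was 25.9% in GHMT against E and 94.9% in AGHMT against GHMT. In AGHMT against CM it was 49.4%, and 28.7% with size factors, and in GHMT against CM 40.7% and 30.5%. None of these scalings turned the direction of a member's call.

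**Figure D2:**
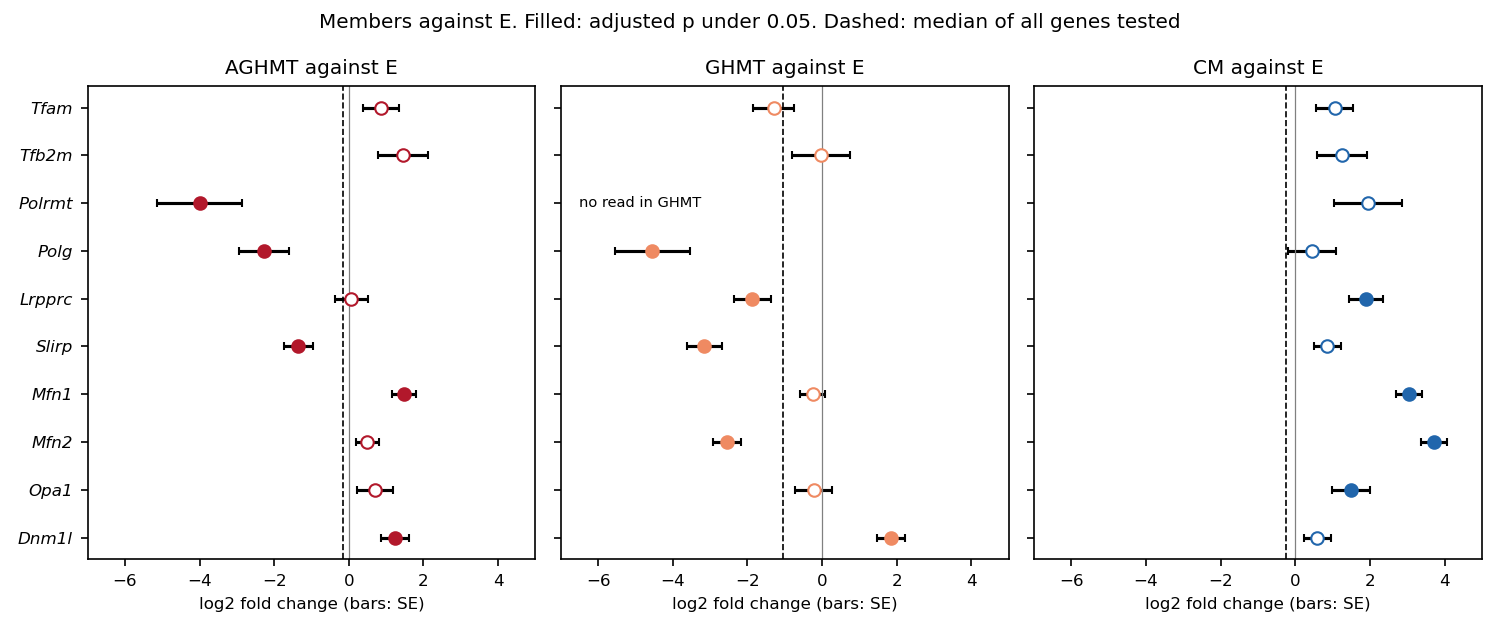
Log2 fold change of each gene in AGHMT, GHMT and CM against E, with bars for the SE, filled points where the adjusted p was under 0.05 and a dashed line at the median of all genes tested. Dnm1l is the single member called higher in GHMT against E, and 4 members are called higher and none lower in CM against E.

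Tfam packs mitochondrial DNA and is needed for its transcription to start. It had 45.6, 42.7 and 40.7 CPM in AGHMT and 9.18, 2.61 and 17.9 CPM in GHMT. In CM it had 48.4, 66.8 and 32.3 CPM, and in E 18.2, 19.7 and 33.4 CPM. AGHMT lay above E and above GHMT in every library and within the range of CM, and GHMT lay below all other groups, on 7, 5 and 26 reads. Tfam rose in AGHMT against GHMT, with means of 43.0 ± 2.46 and 9.88 ± 7.66 CPM (SD, n = 3 each), a log2 fold change of 2.14 (SE 0.56) and an edgeR adjusted p of 0.0183. The adjusted p exceeded the threshold without AGHMT 1 (2.10, 0.0544) or AGHMT 2 (2.15, 0.0572) and with only those groups fitted (2.06, 0.0654), at folds about as large. Without GHMT 3, the highest of its group, the value was 3.13. Against E it was not called in any group. The log2 fold change was 0.86 (SE 0.49, edgeR adjusted p = 0.164) in AGHMT, -1.29 (SE 0.55, 0.0604) in GHMT and 1.05 (SE 0.49, 0.101) in CM, and 1, 11 and 6 of the 26 alternatives called it. It fell in GHMT against CM (log2 fold change -2.34, SE 0.56, edgeR adjusted p = 0.00276), and -3.32 without GHMT 3.

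Tfb2m, which opens the promoter DNA for the polymerase, was low throughout. It had 9.38, 5.95 and 5.67 CPM in AGHMT, 0, 5.73 and 0.687 CPM in GHMT, 6.47, 6.54 and 5.15 CPM in CM and 2.38, 1.99 and 3.27 CPM in E. All AGHMT and CM libraries lay above all E libraries, and the GHMT values rest on 12 reads, 11 of them in GHMT 2. No comparison was called in the fit reported here. In AGHMT against E the log2 fold change was 1.45 (SE 0.67, edgeR adjusted p = 0.0865), and 5 of 25 alternatives called it higher, among them DESeq2 (1.12, adjusted p = 0.00904). In CM against E it was 1.25 (SE 0.67, edgeR adjusted p = 0.151), and 4 of 25 called it higher. In GHMT against CM it was -1.27 (edgeR adjusted p = 0.169), and 5 of 25 called it lower, among them DESeq2 (-1.79, 0.00485) and the correction for GC content described below (-2.50, 0.00613). Pooled over its 3 libraries, GHMT had 0.466 times the level of CM (exact Poisson 95% interval 0.236 to 0.833, which covers counting error alone) and 1.15 times that of E (0.588 to 2.04), both of which rest on GHMT 2. Without that library the log2 fold change was -3.75 in GHMT against CM (edgeR adjusted p = 0.00522) and 3.98 in AGHMT against GHMT (0.0138), where it was 1.47 and not called (0.191) with all libraries.

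Polrmt, the mitochondrial RNA polymerase, had few reads in any group, and nearly none in AGHMT. It had 1, 2 and 1 reads in AGHMT, 0, 0 and 0 in GHMT, 20, 10 and 82 in CM and 111, 51 and 20 in E. In CPM this was 0.0769, 0.11 and 0.0545 in AGHMT, 1.49, 1.01 and 14.1 in CM and 1.86, 1.72 and 0.611 in E, and CM 3 stood far above the other CM libraries. The AGHMT level, pooled over libraries, was 0.0542 times that of E (exact Poisson 95% interval 0.0146 to 0.141) and 0.0211 times that of CM (0.00564 to 0.0555). Polrmt fell in AGHMT against E (log2 fold change -4.00, SE 1.14, edgeR adjusted p = 0.0129), a call that ended without AGHMT 1 (-3.97, 0.0514) or AGHMT 3 (-3.63, 0.0745). It also fell in AGHMT against CM (-5.94, SE 1.19, 0.00168), and -3.85 without CM 3.

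At the depth of the GHMT libraries the absence of Polrmt reads says little against E. The limit that 3 pooled reads allow is 0.725 CPM. It lies 1.93-fold below the E mean, but E 3, at 0.611 CPM, lay under it. GHMT was not called against E (edgeR adjusted p = 0.0696). The limit lies 7.62-fold below the CM mean, and GHMT was called lower than CM (edgeR adjusted p = 0.00955). Without CM 3 the bound against CM was 1.72-fold, and the comparison remained called with an adjusted p of 0.0239. CM and E overlapped (log2 fold change 1.95, SE 0.91, edgeR adjusted p = 0.104).

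Polg, the catalytic subunit of the mitochondrial DNA polymerase, had 1.38, 2.92 and 2.51 CPM in AGHMT, 0, 1.04 and 0 CPM in GHMT, 11.1, 7.75 and 26.3 CPM in CM and 18.1, 9.13 and 5.84 CPM in E. Both reprogrammed groups lay below CM and E in every library, and the GHMT level rests on 2 reads. Pooled over libraries, GHMT had 0.0383 times the level of E (exact Poisson 95% interval 0.00463 to 0.139) and 0.0372 times that of CM (0.00448 to 0.135), and both differences were called (edgeR adjusted p = 0.00214 and 0.000883). Polg fell in AGHMT against E by 2.27 on the log2 scale (SE 0.68, edgeR adjusted p = 0.0141), with means of 2.27 ± 0.795 and 11 ± 6.33 CPM. That call ended without AGHMT 1 (adjusted p = 0.0758), AGHMT 3 (0.0706) or E 1 (a fall of 1.68, 0.0974) and with limma on the deposited normalized values (0.0689). Polg also fell in AGHMT against CM (-2.71, SE 0.69, edgeR adjusted p = 0.00553), and -2.05 without CM 3, and CM and E did not differ beyond their spread (0.44, SE 0.64, 0.608). Polg shares 921 of its 10742 exon bases with Fanci on the other strand, whose mean was 1.32 CPM in AGHMT, 0.521 in GHMT, 0.631 in CM and 9.77 in E. No source used here says whether counting heeded the strand, so reads in the shared bases cannot be assigned.

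Lrpprc, the larger partner of the RNA-stabilising complex, had 56.0, 56.5 and 51.2 CPM in AGHMT, 1.31, 20.8 and 17.2 CPM in GHMT, 213, 230.1 and 137 CPM in CM and 46.2, 44.1 and 65.4 CPM in E. CM stood above all other libraries, AGHMT and E overlapped, and GHMT lay below them on 1, 40 and 25 reads. Lrpprc rose in CM against E (193 ± 49.7 against 51.9 ± 11.7 CPM, log2 fold change 1.90, SE 0.45, edgeR adjusted p = 0.00349), though not with total counts as library sizes (0.86, 0.249). It fell in GHMT against E (-1.87, SE 0.49, edgeR adjusted p = 0.00583), and -2.53 without E 1. AGHMT did not differ from E beyond the spread (0.07, SE 0.44, 0.905). It rose in AGHMT against GHMT (1.94, SE 0.49, edgeR adjusted p = 0.0164), a call that ended without AGHMT 2 (1.93, 0.0546) and with only those groups fitted (1.92, 0.0812). It fell in AGHMT against CM (-1.82, SE 0.45, 0.00495), a call that ended without AGHMT 3 (-1.60, 0.062) and with total counts (-1.61, 0.0503), and in GHMT against CM (-3.77, SE 0.52, 3.53e-05).

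Slirp, the smaller partner, moved apart from Lrpprc in AGHMT. It had 16.0, 22.2 and 19.7 CPM in AGHMT, 9.18, 5.73 and 2.75 CPM in GHMT, 80.3, 124 and 63.0 CPM in CM and 51.3, 52.9 and 43.4 CPM in E. The 4 groups did not overlap and ran from GHMT, on 7, 11 and 4 reads, through AGHMT and E to CM. Slirp fell in AGHMT against E (19.3 ± 3.12 against 49.2 ± 5.08 CPM, log2 fold change -1.35, SE 0.38, edgeR adjusted p = 0.01), a call that ended without AGHMT 1 (-1.22, 0.0609) or AGHMT 3 (-1.25, 0.0552). It fell in GHMT against E (-3.15, SE 0.46, edgeR adjusted p = 8.94e-05). In CM against E it was not called (0.86, SE 0.37, 0.0764), while 10 of the 26 alternatives called it higher. It rose in AGHMT against GHMT (1.80, SE 0.45, edgeR adjusted p = 0.0157), a call that ended without AGHMT 2 (1.69, 0.0624) and with only those groups fitted (1.69, 0.115). It fell against CM in AGHMT (-2.21, SE 0.39, 0.000491) and in GHMT (-4.01, SE 0.46, 7.28e-06).

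The Slirp counts carry a limit of the annotation. Of its 3104 exon bases, 2914 overlap exons of Snw1 and 122 those of Alkbh1, both on the other strand, and reads of the genes cannot be told apart unless the counting heeded the strand, which no source used here says. Snw1 averaged 13.3 CPM in AGHMT, 3.71 in GHMT, 18.4 in CM and 24.9 in E. As a ratio of raw reads, Lrpprc had 3.5, 2.55 and 2.6 times the reads of Slirp in AGHMT, 0.143, 3.64 and 6.25 times in GHMT, 2.65, 1.85 and 2.17 times in CM and 0.902, 0.833 and 1.51 times in E. All AGHMT and CM libraries lay above all E libraries, and the GHMT ratios spanned the others.

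Mfn1, one of the mitofusins of the outer membrane, had 135, 124 and 132 CPM in AGHMT, 55.1, 28.7 and 36.4 CPM in GHMT, 442, 465 and 242 CPM in CM and 36.3, 44.7 and 59.1 CPM in E. AGHMT stood between CM and the other groups without overlap, while GHMT and E overlapped. Mfn1 rose in AGHMT against E (130.4 ± 5.56 against 46.7 ± 11.5 CPM, log2 fold change 1.48, SE 0.33, edgeR adjusted p = 0.00274), though not with total counts as library sizes (0.65, 0.0944). It rose in CM against E (3.04, SE 0.35, edgeR adjusted p = 7.03e-06) and in AGHMT against GHMT (1.73, SE 0.35, 0.00509). GHMT did not differ from E beyond the spread (-0.25, SE 0.34, edgeR adjusted p = 0.55), but was called lower with total counts (-1.77) and without E 1 (-1.07). Mfn1 fell against CM in AGHMT (-1.55, SE 0.33, 0.00184) and in GHMT (-3.28, SE 0.36, 4.88e-06).

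Mfn2, the other mitofusin, which in addition tethers mitochondria to the endoplasmic or sarcoplasmic reticulum, had the widest range of the fusion genes. It had 52.6, 62.4 and 61.2 CPM in AGHMT, 3.93, 9.38 and 6.87 CPM in GHMT, 604, 491 and 534 CPM in CM and 57.0, 42.7 and 24.9 CPM in E. CM lay far above all other libraries, AGHMT overlapped E, and GHMT lay below all of them, on 3, 18 and 10 reads. Mfn2 rose in CM against E (543 ± 57.1 against 41.5 ± 16.1 CPM, log2 fold change 3.71, SE 0.35, edgeR adjusted p = 1.08e-06). It fell in GHMT against E (-2.54, SE 0.38, edgeR adjusted p = 0.000128), and AGHMT was not called against E (0.50, SE 0.32, 0.208). It rose in AGHMT against GHMT (58.7 ± 5.31 against 6.73 ± 2.73 CPM, log2 fold change 3.04, SE 0.39, edgeR adjusted p = 0.000412), the largest of the 5 rises of members in that comparison. Against CM it fell in AGHMT (-3.21, SE 0.34, edgeR adjusted p = 9.13e-06) and in GHMT (-6.25, SE 0.42, 7.17e-08). All 26 alternatives kept the calls in CM against E, GHMT against E and AGHMT against GHMT.

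Opa1, the fusion protein of the inner membrane and a keeper of cristae, had 114, 110.3 and 119 CPM in AGHMT, 9.18, 97.4 and 68.0 CPM in GHMT, 212, 238 and 143 CPM in CM and 59.7, 69.0 and 82.1 CPM in E. CM and AGHMT lay above E in every library, and the GHMT libraries were spread around E, with 7 reads in GHMT 1. Opa1 rose in CM against E (198 ± 49.2 against 70.2 ± 11.2 CPM, log2 fold change 1.49, SE 0.50, edgeR adjusted p = 0.0242). That call ended with total counts (0.45, 0.58) and without AGHMT 3 (1.40, 0.0733), CM 1 (1.47, 0.0581), CM 2 (1.35, 0.0673), E 1 (1.23, 0.139) or E 2 (1.45, 0.079). It was not called in AGHMT against E (0.70, SE 0.49, edgeR adjusted p = 0.248), GHMT against E (-0.23, SE 0.50, 0.709), AGHMT against GHMT (0.93, SE 0.50, 0.201) or AGHMT against CM (-0.79, SE 0.49, 0.192). In AGHMT against CM 6 of the 26 alternatives called it lower, among them the fit of those groups alone (-0.71, 0.0139) and that without GHMT 1 (-0.79, 0.0276). It fell in GHMT against CM (-1.73, SE 0.51, edgeR adjusted p = 0.00989).

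Dnm1l, the dynamin that divides mitochondria, was the one member with its highest mean in GHMT. It had 292, 228 and 270.2 CPM in AGHMT, 493, 475 and 233 CPM in GHMT, 171, 231 and 101 CPM in CM and 78.8, 107 and 150.3 CPM in E. AGHMT and GHMT lay above E in every library, and CM overlapped E and AGHMT. Dnm1l rose in GHMT against E (400.4 ± 145 against 112 ± 36.0 CPM, log2 fold change 1.84, SE 0.38, edgeR adjusted p = 0.00122). The call ended with total counts (0.38, 0.406) and without E 1 (0.99, 0.0608), and the value was 1.23 without AGHMT 3. It rose in AGHMT against E (1.24, SE 0.37, edgeR adjusted p = 0.0143), a call that ended without AGHMT 1 (1.16, 0.0564), AGHMT 3 (1.29, 0.052), E 1 (1.04, 0.0705) or E 2 (1.19, 0.0544) and with total counts (0.39, 0.416). AGHMT and GHMT did not differ beyond the spread (-0.60, SE 0.37, edgeR adjusted p = 0.261), nor did CM and E (0.59, SE 0.37, 0.217) or AGHMT and CM (0.65, SE 0.37, 0.153). Of the 26 alternatives, 5 called it higher in CM against E, among them DESeq2 (0.95, 0.0191), limma (0.95, 0.0442) and equal reads outside the mitochondrial genome (1.18, 0.0108). GHMT was called higher than CM (1.25, SE 0.37, 0.0102), but 11 of the 26 alternatives did not call it, among them the fits without AGHMT 3 (0.76, 0.135) and without E 1 (0.77, 0.0754).

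Where AGHMT 3 or E 1 was left out, all genes moved with the members. The median of all genes in AGHMT against GHMT was 0.63 with all libraries, 1.30 without AGHMT 3 and 1.27 without E 1. Without AGHMT 3 the values of the called members were 2.86 for Tfam, 2.60 for Lrpprc, 2.44 for Slirp, 2.41 for Mfn1 and 3.64 for Mfn2. Without E 1 they were 2.79 for Tfam, 2.52 for Lrpprc, 2.43 for Slirp, 2.40 for Mfn1 and 3.63 for Mfn2. Relative to the median of all genes, the rises thus stayed about as large.

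Fold changes ran with the base composition of the genes, and the libraries differed in that respect. GC content was taken from the longest transcript of each gene. Among the members it ran from 40.9% in Dnm1l to 60.5% in Polrmt. Between them were Tfb2m at 42.5%, Slirp at 43.2%, Opa1 at 43.5%, Tfam at 44.9%, Mfn1 at 45.9%, Lrpprc at 47.1%, Polg at 52.7% and Mfn2 at 53.1%. As a measure of each library, the median deviation from the mean of all libraries (log2) of 1246 genes with at most 42% GC was taken from that of 513 genes above 54% GC. It was -1.32, -0.48 and -0.77 in AGHMT, -2.70, -1.94 and -1.32 in GHMT, 1.27, 0.48 and 2.76 in CM and 2.12, 1.37 and 0.28 in E. Genes rich in GC thus had relatively fewer reads in both reprogrammed groups than in CM and E. Each library was also corrected for the trend of its reads with the GC content of the genes. The correction takes out any such trend, whatever its source, and the trend differed between groups. The part of base composition in the results was therefore not measured.

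**Figure D3:**
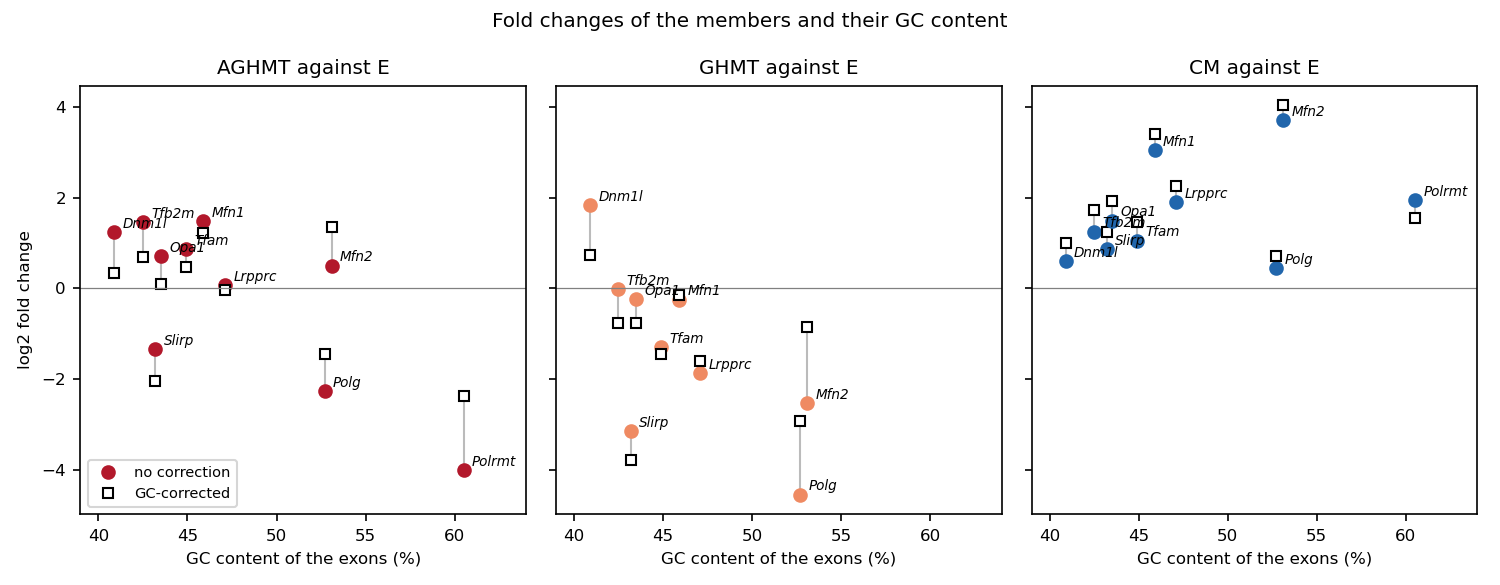
Log2 fold change of each gene (vertical axis) and GC content in percent (horizontal axis) in AGHMT, GHMT and CM against E. GC content is that of the longest transcript, though the axis names the exons. Circles are values without and squares values with the correction for GC content. Polrmt has no read in GHMT and is not drawn there, and Dnm1l falls to 0.33 in AGHMT and 0.73 in GHMT with the correction.

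With the correction, Mfn2 rose in AGHMT against E (1.36, edgeR adjusted p = 0.000146) and the fall in GHMT against E was smaller (-0.86, 0.0165). The rise of Dnm1l in AGHMT against E was 0.33 and not called (edgeR adjusted p = 0.233), and its rise in GHMT against E was 0.73 and called (0.015). Against CM, Dnm1l turned direction: it was -0.67 and called lower in AGHMT (edgeR adjusted p = 0.022) and -0.27 and not called in GHMT (0.318). Polrmt (-2.37, 0.0252), Polg (-1.46, 0.0275) and Slirp (-2.04, 0.000434) were still called lower in AGHMT against E, and Mfn1 (1.21, 0.00337) higher. Polg was called lower in GHMT against E (-2.93, edgeR adjusted p = 0.0177), while Lrpprc (-1.61, 0.00385) and Slirp (-3.79, 1.72e-05) stayed called lower and Tfam (-1.44, 0.0285) was called lower too. In CM against E all members but Polg (0.72, 0.226) were called higher, Mfn2 by 4.03, Mfn1 by 3.41, Lrpprc by 2.26, Opa1 by 1.92 and Dnm1l by 1.0.

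The members called in AGHMT against GHMT kept their calls with the correction. The values were 1.90 for Tfam, 1.58 for Lrpprc, 1.75 for Slirp, 1.36 for Mfn1 and 2.23 for Mfn2, where the median of all genes was 0.23. In GHMT against CM, Polrmt was no longer called (edgeR adjusted p = 0.0512), and in AGHMT against CM Opa1 was called lower (-1.83, 0.00329).

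Ratios of members within a library do not depend on how libraries are scaled. Per kilobase of exon, the reads of Mfn2 relative to Mfn1 had log2 ratios of -1.12, -0.76 and -0.87 in AGHMT, -3.57, -1.38 and -2.17 in GHMT, 0.69, 0.31 and 1.38 in CM and 0.89, 0.17 and -1.01 in E. Mfn2 was thus the more abundant mitofusin in the 3 CM libraries and the less abundant in all 6 reprogrammed libraries, and E spanned both. Within AGHMT, CM and E the libraries stood in the order of their measure of GC content above, and within GHMT they did not. The 2 genes differ in GC content, 53.1% and 45.9%, and the part of it in the ratio was not tested.

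**Figure D4:**
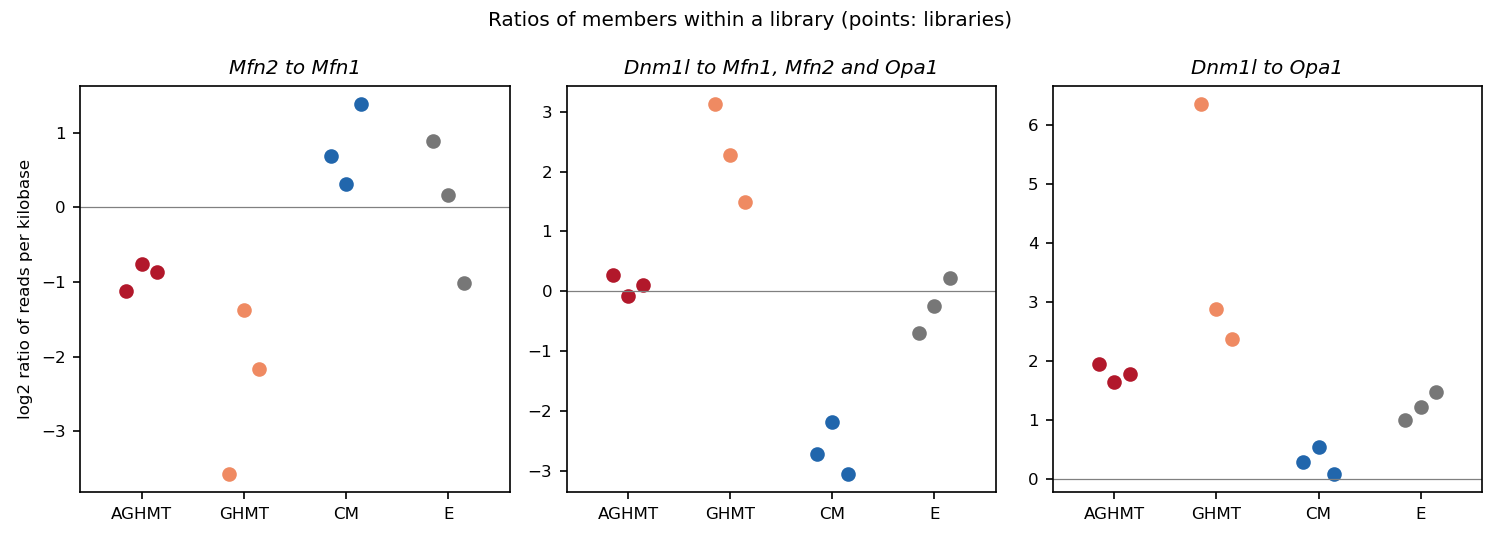
Log2 ratios of reads per kilobase within each library (points) for Mfn2 to Mfn1, for Dnm1l to the sum of Mfn1, Mfn2 and Opa1, and for Dnm1l to Opa1, in AGHMT, GHMT, CM and E. The Dnm1l to Opa1 ratio is 2.37 to 6.35 in GHMT and 0.09 to 0.55 in CM, and no groups overlap.

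Dnm1l relative to the summed fusion genes Mfn1, Mfn2 and Opa1 had log2 ratios of 0.27, -0.08 and 0.10 in AGHMT, 3.12, 2.28 and 1.49 in GHMT, -2.71, -2.18 and -3.05 in CM and -0.69, -0.25 and 0.22 in E. GHMT lay above and CM below all other libraries, and AGHMT overlapped E. Reads of the fission gene thus exceeded those of the fusion genes per kilobase in GHMT, were fewer in CM and were about level with them in AGHMT and E. A further ratio, of Dnm1l to Opa1 with 40.9% and 43.5% GC, was added after these values were seen. Its log2 value was 1.96, 1.65 and 1.78 in AGHMT, 6.35, 2.88 and 2.37 in GHMT, 0.29, 0.55 and 0.09 in CM and 1.0, 1.22 and 1.47 in E. The groups did not overlap, in the order GHMT, AGHMT, E and CM, and GHMT 1 rests on 7 reads of Opa1. Within each of the 4 groups both ratios of Dnm1l were higher the lower the GC measure of the library, in exact order, and how far base composition sets the differences between groups was not tested. Mfn1 relative to Opa1 was 0.61, 0.54 and 0.52 in AGHMT, 2.95, -1.40 and -0.54 in GHMT, 1.43, 1.33 and 1.12 in CM and -0.35, -0.26 and -0.11 in E. AGHMT and CM lay above E without overlap, and GHMT spanned all other groups.

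Levels of different genes were compared per kilobase of exon, with Slirp left out because of its overlap. Dnm1l had the highest mean in AGHMT (50.7 ± 6.24 CPM per kilobase), GHMT (76.9 ± 27.9) and E (21.5 ± 6.93), and came after Mfn2 (104.6 ± 11) and Mfn1 (62.7 ± 20.1) in CM (32.2 ± 12.5). In AGHMT the order after Dnm1l was Mfn1 (21.3 ± 0.91), Opa1 (14.5 ± 0.54), Mfn2 (11.3 ± 1.02), Tfam (9.69 ± 0.554) and Lrpprc (6.42 ± 0.348), each apart from the next by more than their SD. In GHMT it was Opa1 (7.39 ± 5.71), Mfn1 (6.55 ± 2.22), Tfam (2.23 ± 1.73), Lrpprc (1.54 ± 1.22) and Mfn2 (1.30 ± 0.525), neighbours that do not differ beyond their SD except Mfn1 and Tfam. In CM Opa1 (25.1 ± 6.25) and Lrpprc (22.7 ± 5.84) followed Dnm1l, and these 3 do not differ beyond their SD. In E Opa1 (8.92 ± 1.43), Mfn2 (8.0 ± 3.10), Mfn1 (7.64 ± 1.89), Lrpprc (6.10 ± 1.38) and Tfam (5.35 ± 1.89) came next. Neighbours among them differ by less than the larger SD of the pair. Tfb2m, Polg and Polrmt had the 3 lowest means in every group. Polrmt (0.0172 ± 0.00597) lay below Polg (0.211 ± 0.074) and Polg below Tfb2m (2.5 ± 0.736) in AGHMT. In GHMT Polg and Polrmt are both under the limit of 3 pooled reads and have no order. In CM Polrmt (1.18 ± 1.58), Polg (1.4 ± 0.918) and Tfb2m (2.16 ± 0.278) overlap, with Polrmt the highest of them in CM 3, and in E Polg (1.02 ± 0.589) and Tfb2m (0.908 ± 0.234) overlap above Polrmt (0.298 ± 0.146).

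Other genes of the same pathways were taken from lists, and the counts below are over the list members tested. They are to be read against the shares of all genes called higher and lower. These were 21.9% and 24.6% in AGHMT against E, 19.8% and 32.9% in GHMT against E and 19.5% and 22.5% in CM against E. In AGHMT against GHMT they were 13.2% and 4.58%. Of 14 genes for the replication and upkeep of mitochondrial DNA, 2 were higher and 6 lower in AGHMT against E, 2 and 9 in GHMT, and 2 and 1 in CM. The median log2 fold change was -1.02 in AGHMT, -2.10 in GHMT (with genes without reads at their bound) and 0.56 in CM, against medians of all genes of -0.16, -0.59 and -0.26. Slc25a4, the heart and muscle form of the ADP/ATP carrier and the most abundant gene of the list, averaged 458 CPM in AGHMT, 515 in GHMT, 4856 in CM and 186 in E, and was higher than E in all 3 groups (edgeR adjusted p = 0.00469, 0.00175 and 1.38e-07). Rrm2b, a ribonucleotide reductase subunit of cells that do not divide, averaged 67.0, 118, 22.3 and 9.7 CPM in AGHMT, GHMT, CM and E and was higher than E in all 3 as well (edgeR adjusted p = 0.000267, 3.67e-05 and 0.0335). Top1mt, the mitochondrial topoisomerase, was lower in AGHMT (0.132 CPM) than in E (2.85 CPM, edgeR adjusted p = 0.00255). It had no read in GHMT, where the limit of 3 pooled reads lies 3.93-fold below the E mean. E 3, at 0.642 CPM, lay under that limit of 0.725 CPM. Ssbp1, the single-strand binding protein of mitochondrial DNA, was the one gene of the list called in AGHMT against GHMT. It had 17.9 and 1.01 CPM (edgeR adjusted p = 0.00117), and the GHMT level rests on 1, 2 and 1 reads.

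Of 30 genes for mitochondrial transcription, RNA processing and decay, 3 were higher and 5 lower in AGHMT against E, 4 and 12 in GHMT, and 8 and 1 in CM, with medians of -0.46, -0.98 at the bounds, and 0.90. In AGHMT against GHMT 8 were higher and 0 lower (1 lower in edgeR at an unadjusted p under 0.05), with a median of 0.95 at the bounds where that of all genes was 0.33. Grsf1, an RNA-binding protein of mitochondrial RNA granules and the most abundant of the list, averaged 129.9 CPM in AGHMT, 86.2 in GHMT, 214 in CM and 65.2 in E. Pnpt1, a mitochondrial exoribonuclease, averaged 85.8, 120.2, 41.1 and 37.4 CPM and was higher than E in AGHMT and GHMT (edgeR adjusted p = 0.0307 and 0.00513). Mterf3, a repressor of mitochondrial transcription, averaged 40.7, 84.2, 29.1 and 16.2 CPM and was also higher than E in both (edgeR adjusted p = 0.00666 and 0.000128). Lonp1, the matrix protease that degrades unbound Tfam, averaged 3.15 CPM in AGHMT and 32.9 CPM in E and was lower in AGHMT (edgeR adjusted p = 0.00305). These genes were named by size of change or abundance, so that they do not stand for the list.

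Of 13 further fission factors, 2 were higher and 3 lower in AGHMT against E, 2 and 6 in GHMT, and 4 and 2 in CM, with medians of -0.12, -0.11 and 0.13 against -0.16, -0.59 at the bounds and -0.26 for all genes. Mtfp1, a fission protein of the inner membrane, averaged 3.69 CPM in AGHMT, 1.28 in GHMT, 75.2 in CM and 0.147 in E. It was higher than E in all 3 groups (edgeR adjusted p = 2.06e-05, 0.0201 and 5.85e-08). Its GHMT level rests on 2, 1 and 1 reads. Slc25a46, an outer membrane protein of mitochondrial dynamics and the most abundant of the list, averaged 199, 193, 112 and 73.8 CPM and was higher than E in AGHMT and GHMT (edgeR adjusted p = 0.00935 and 0.0094). Fis1, an outer membrane adaptor, had 2.23, 2.97 and 1.64 CPM in AGHMT, against 43.7, 9.13 and 5.14 CPM in E. It was called lower (log2 fold change -3.08, edgeR adjusted p = 0.0161), but not without E 1 (-1.61, 0.19), AGHMT 1 (-3.05, 0.062) or AGHMT 3 (-2.65, 0.0918).

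Of 15 further fusion factors, Opa1 proteases and inner membrane partners, 4 were higher and 2 lower in AGHMT against E, 5 and 7 in GHMT, and 8 and 0 in CM (0 lower in edgeR at an unadjusted p under 0.05), with medians of -0.54, -0.29 and 1.37 against the same values for all genes. Pld6, a 16th gene of the list, did not pass the filter. Yme1l1, a protease that cuts Opa1 and the most abundant of the list, averaged 465 CPM in AGHMT, 580 in GHMT, 116 in CM and 171 in E. It was higher than E in AGHMT (edgeR adjusted p = 0.00675). It was also called higher in GHMT against E, a call that ended on leaving out 1 of the 12 libraries. Miga1, a partner of the mitofusins, averaged 24.5, 78.0, 13.9 and 5.36 CPM and was higher than E in AGHMT and GHMT (edgeR adjusted p = 0.0036 and 8.6e-05) and lower in AGHMT than in GHMT (0.038). Chchd3, a cristae protein, averaged 523 CPM in CM and 50.9 CPM in E (edgeR adjusted p = 9.28e-07). Afg3l2, a subunit of the protease that regulates Opa1 cleavage, was higher in AGHMT (17.5 CPM) than in GHMT (1.94 CPM, edgeR adjusted p = 0.00145). Its GHMT level rests on 1, 6 and 2 reads.

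Of 8 nuclear regulators of these genes, 2 were higher and 1 lower in AGHMT against E, 3 and 1 in GHMT, and 3 and 1 in CM. Ppargc1a, the coactivator PGC-1α of mitochondrial biogenesis, averaged 80.3 CPM in AGHMT, 25.5 in GHMT, 159 in CM and 0.204 in E. It was higher than E in all 3 groups (edgeR adjusted p = 1.6e-08, 9.54e-08 and 4.38e-09) and higher in AGHMT than in GHMT (log2 fold change 1.63, SE 0.37, 0.00991). Gabpa, the DNA-binding subunit of GABP, averaged 115 CPM in AGHMT, 257 in GHMT, 60.7 in CM and 91.3 in E and was lower in AGHMT than in GHMT (-1.16, SE 0.33, edgeR adjusted p = 0.0292). Esrra, the nuclear receptor ERRα, had 0.307, 0.661 and 0.327 CPM in AGHMT, against 2.16, 4.93 and 82.8 CPM in CM. It was called lower (log2 fold change -6.07, edgeR adjusted p = 0.00229), and by -3.00 without CM 3 (0.0146). The products of mitochondrial DNA were measured too. Of its 13 messenger RNAs 10 were tested, and 10 were higher in AGHMT, 9 in GHMT and 10 in CM against E, with medians of 3.52, 3.53 and 4.30. In AGHMT against GHMT 0 of them were higher (1 in edgeR at an unadjusted p under 0.05) and 2 were lower, mt-Nd6 and mt-Nd5. mt-Nd6, which is encoded on the other strand from the remaining messenger RNAs, took 2.55%, 1.73% and 2.33% of the reads in AGHMT, against 43.09%, 3.34% and 14.0% in GHMT. Without GHMT 1 the log2 fold change of mt-Nd6 was -2.27 (edgeR adjusted p = 0.0206), where it was -4.44 (0.00544), and that of mt-Nd5 was -0.89 and no longer called (0.185). By contrast mt-Atp6 and mt-Co3 had 3.15 CPM or less and 3.49 CPM or less in AGHMT, so the counts are uneven over the mitochondrial genome. Of the mitochondrial share of 72.17% in GHMT 1, mt-Nd6 makes up 43.09% of all reads.

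Calls of several genes named from the lists ended when 1 library was left out, a check added after the data were seen. Without E 1 this held in GHMT against E for Slc25a4 (0.93, edgeR adjusted p = 0.0547), Pnpt1 (0.82, 0.171), Slc25a46 (0.52, 0.34) and Mtfp1 (2.29, 0.0603). Mtfp1 also lost that call without GHMT 1 (1.92, 0.194), and Pnpt1 (1.07, 0.0784) and Slc25a46 (0.81, 0.159) without AGHMT 3. In AGHMT against E it held without E 1 for Slc25a46 (1.17, 0.0648), Yme1l1 (1.26, 0.0537) and Pnpt1 (0.98, 0.137), the last of which lost its call on leaving out any 1 of 5 libraries. The call of Rrm2b in CM against E ended on leaving out any 1 of 7 libraries (0.90, 0.186 without E 1). In AGHMT against GHMT the calls of Miga1 and Gabpa each ended on leaving out any 1 of 8 libraries, with values of -0.63 for Miga1 without GHMT 1 (0.235) and -0.41 for Gabpa without AGHMT 3 (0.528). Top1mt and Lonp1 remained called lower in AGHMT against E without E 1, at -3.50 (0.0132) and -2.58 (0.027). Calls that held but moved by over 1.5-fold in AGHMT against GHMT were those of Ppargc1a (2.31 without AGHMT 3 and 2.24 without E 1), Afg3l2 (3.73 and 3.65) and Ssbp1 (4.80 without E 1), where the median of all genes moved as given above. In GHMT against E without E 1, Mterf3 was 1.60, Miga1 3.09 and Ppargc1a 6.10, against 2.37, 3.83 and 6.99 with all libraries, and Rrm2b was 2.85.

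The profiles of single members over the 12 libraries were set beside those of 6824 protein-coding genes with a mean of at least 10 CPM, by the root mean square difference of log2 CPM centred on each gene's mean. The libraries share depth and base composition, so that likeness is a description. Closest to Mfn1 was Hibadh (0.13), an enzyme of valine breakdown in mitochondria, and then Ndufs1 (0.35), a subunit of respiratory complex I. Closest to Dnm1l were Cul3 (0.13), Arhgap12 (0.15) and Ccnt2 (0.18), and closest to Opa1 was Slc35f5 (0.23). Closest to Slirp was C1qbp (0.42), a mitochondrial matrix protein, and closest to Mfn2 were Atp5mpl (0.49), Hadha (0.50) and Ndufb3 (0.51), all of mitochondria. The nearest gene was Eif3i for Polg (0.41), Jmjd4 and Antxr2 for Tfam (0.46 each), Pex7 for Lrpprc (0.50), Gsn for Polrmt (0.52) and Fig4 for Tfb2m (0.55). Among the members the closest pair was Tfb2m and Opa1 (0.80) and the farthest was Polg and Dnm1l (3.11).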

How the data were processed

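The 10 genes and the lists of other genes were chosen with earlier results of these data known. Total RNA came from a TRIzol extraction and libraries from a stranded TruSeq kit, per the labels. The submitters' processing notes name Bowtie2 2.0.6, HTSeq, DESeq and the build mm10. Which annotation was counted, and with which strand setting, is not given in the sources used here. What the authors deposited per library are raw counts of reads per Ensembl gene, of which 42462 of 43629 identifiers matched GENCODE M21 (GRCm38, the build of mm10). A further deposited table holds the authors' normalized signal, 26474 rows in which 100% of values were whole reads (tolerance 0.001) after division by 1 factor per library. Its 24312 rows matched to 1 identifier had equal counts in 24268.

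The filterByExpr rule of edgeR 4.0.16, at a minimum count of 10 and a minimum total of 15, left 15059 genes. All 12 libraries entered 1 robust quasi-likelihood fit (R 4.3.3) with group as the sole term and a prior count of 2 for log2 values, and 6 pairs of groups were tested. Pairs of replicates differed beyond counting error (chi-square per degree of freedom at least 15.0). Counts of 15059 genes were simulated, with 200 changed 4-fold in CM against E. The fit called 175 of them with the right sign. It called 0 genes in GHMT against E, simulated without change. The simulation gave all genes the same dispersion and no trend with GC content. In the data, chi-square per degree of freedom was 57.1 to 212.6 between GHMT libraries and 85.3 to 298.4 between E libraries. The simulation therefore cannot show how many calls are false at that spread. Exact Poisson 95% intervals and the limit of 3 reads cover counting error only.

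Alternatives were size factors of DESeq2 in the edgeR fit, library sizes from total counts, scaling without mitochondrially encoded genes, 2 other filters, DESeq2 1.42.0, limma 3.58.1 on log2 values of the deposited normalized signal with 1 added, fits of the compared groups alone, a replicate block, thinning to 1872558 reads, a per-library loess (span 0.4) on GC content, and each library left out in turn. After the data were seen, fits on the reads recovered from the normalized signal, on libraries thinned to 612458 reads outside the mitochondrial genome and without GHMT 1, CM 3 and E 1 were added, as was leaving out each library for genes named from the lists. Genes named outside the 10 were the most abundant of each list, up to 2 called genes per direction with the largest change, of which the text gives a part, and the 3 nearest in profile. The gene Mpv17 was not analysed here. Promoter sequences are from RefSeq.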

Additional observations from a re-analysis of the deposited data

Results flagged for a closer look

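Of the 10 members, 5 had an effect against E that differed between AGHMT and GHMT. The test was the edgeR comparison of AGHMT with GHMT itself, in which the level of E cancels. The E libraries still entered the filter, the scaling and the estimate of the spread. Without E 1 the median of all genes in that comparison was 1.27. Of all genes, 13.2% were called higher and 4.58% lower in that comparison. The difference in log2 fold change was 2.14 for Tfam, 1.94 for Lrpprc, 1.80 for Slirp, 1.73 for Mfn1 and 3.04 for Mfn2, and the median of all genes was 0.63. The GHMT side rests on 38 reads of Tfam, 66 of Lrpprc, 22 of Slirp, 150 of Mfn1 and 31 of Mfn2. All 5 were higher in every AGHMT library than in every GHMT library. That is no further evidence, because the 5 were picked by their calls in these same libraries. The share of all genes separated in this way is not given here. Polg, on 2 reads in GHMT, and Opa1 were also higher in every AGHMT library, without a call. Polrmt had 0.0545 to 0.11 CPM in AGHMT and no read in GHMT. The limit of 3 pooled reads in GHMT, 0.725 CPM, lies above these AGHMT values, so the groups have no order for Polrmt. GHMT had the fewest reads of all groups. With each library thinned to 612458 reads outside the mitochondrial genome all 5 were still called, with values of 2.0 for Tfam, 2.14 for Lrpprc, 1.93 for Slirp, 1.53 for Mfn1 and 2.71 for Mfn2. Tfam, Lrpprc and Slirp lost their calls with only AGHMT and GHMT fitted (adjusted p = 0.0654, 0.0812 and 0.115) and without AGHMT 2 (0.0572, 0.0546 and 0.0624), with values of 1.69 to 2.15, and Tfam also without AGHMT 1 (0.0544).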

How the results depend on the processing

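Over 26 alternatives, 1422 of 1539 fold changes of members kept their direction and side of the threshold, 44 lost a call, 71 gained one and 2 turned direction. A turn of sign between values that are both short of the threshold is not counted as a change. The 2 turns were those of Dnm1l with the GC correction, -0.67 in AGHMT against CM and -0.27 in GHMT against CM.

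Counts of members called moved as follows. In AGHMT against E, 0 were higher with total counts and 5 with only the groups compared (2 as reported). Of all genes, 1622 of 15059 and 4463 of 14408 were higher in these fits (3292 of 15059 as reported). In GHMT against E, 0 were higher and 7 lower with total counts (1 and 4). Of all 15059 genes, 1110 were then higher and 8111 lower (2979 and 4948). In CM against E, 7 were higher with DESeq2's size factors, 8 with DESeq2, 9 with the GC correction and 2 with total counts (4). In that order 3543, 4127, 4060 and 1767 of all genes were higher (2933), of 15059 tested, or 14916 with DESeq2. With only the groups compared, 2 were higher in AGHMT against GHMT (5) and 1 was higher in AGHMT against CM (0). Of all genes, 1074 of 10780 and 4883 of 13441 were higher there (1993 and 3576 of 15059). In GHMT against CM, 0 were higher (1) with DESeq2's size factors, total counts, scaling without mitochondrially encoded genes, DESeq2, limma, only the groups compared, the GC correction, equal reads outside the mitochondrial genome, or without GHMT 1, CM 3 and E 1. For GHMT against CM, 3588 of all genes were higher, 2844 with DESeq2's size factors, 2761 with total counts and 3306 with GC correction. Leaving out 1 library gave ranges, with those of all genes in brackets. In AGHMT against E 1 to 4 members were higher and 0 to 3 lower (2431 to 3862 and 1670 to 4416). In GHMT against E 0 to 1 were higher and 4 to 6 lower (1658 to 3141 and 4215 to 5929). In CM against E 3 to 6 were higher (2413 to 3500), and in AGHMT against GHMT 2 to 6 (865 to 3851). In AGHMT against CM 5 to 7 were lower (2152 to 4394). In GHMT against CM 0 to 1 were higher and 8 to 9 lower (2664 to 3644 and 4500 to 6283). These fits tested 15344 to 15914 genes. Other than by the fewer samples or genes that some of these fits hold, the cause was not tested.

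Groups share replicate numbers, but the labels do not say that the numbers pair the libraries. Deviations of libraries with the same number had correlations of -0.804 to 0.216 over 18 pairs. Those with different numbers had -0.827 to 0.856 over 36. The correlations cannot settle whether a pairing exists, because libraries within a group also differed in their trend with GC content. With the replicate block all 12 counts of members called were as without it. Among them were 2 higher and 3 lower in AGHMT against E and 5 higher in AGHMT against GHMT. Over all genes these counts were 2807, 2867 and 1049, against 3292, 3706 and 1993 without the block.

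Depth limits the values of Tfb2m, Polrmt and Polg in GHMT, with 12, 0 and 2 reads there.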
